A study of Mus musculus with 9 samples.

Results

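Mucins and mucosal scavenger proteins are described here through 8 genes of the 27179 in the deposited count table: Muc1, Muc4, Muc15, Muc20, Muc13, Muc16, Dmbt1 and Cdcp3. These genes were chosen by name, from earlier results in which their measured levels differed between the populations. All their values in the same 9 libraries are therefore given as a description, without a test. The libraries came from luminal epithelial cells sorted from mammary tissue of adult mice, with 3 libraries in each of 3 populations, all depleted of lineage-positive cells (Lin-). HR- LP cells were CD14+ and PR-cre/YFP-. HR+ LP cells were CD14+ and PR-cre/YFP+, and ML cells were CD14-. The sample labels call the ML cells PR-cre/YFP+, whereas the design text of the series calls them YFP-, and the sample labels were followed. These names are spelled as in the labels. PR-cre is a Cre recombinase named for the progesterone receptor gene and YFP its fluorescent reporter, and a Cre reporter generally marks cells by past as well as present activity of the driver. No treatment, strain, age in weeks or pooling of animals is given in the labels. They also do not say that the 3 libraries of a population came from separate animals, so the p-values below measure the spread between these libraries only.

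Mucins are large glycoproteins whose repeats of serine, threonine and proline carry dense O-linked sugars. The transmembrane mucins among them stay anchored in the apical membrane of secretory epithelia, where their extracellular parts form the glycocalyx and their short cytoplasmic tails contact signalling proteins. MUC1 and MUC15 are known components of the membrane that wraps milk fat droplets. DMBT1 is a secreted protein built from scavenger receptor cysteine-rich (SRCR) and CUB domains that binds bacteria and sulphated sugars on mucosal surfaces, and CDCP3 is named for its CUB domains.

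The stretches of 250 bases before the annotated start were looked at first, because 4 of the genes were highest in HR- LP and 4 in the other populations. Windows of 6 of the 8 genes were found in RefSeq (GRCm38.p6), and the 5 that held a motif searched for are printed 5′ to 3′ on the strand of the gene, with the matches in capitals. They lie at chr3:89228806-89229055 (Muc1, plus strand), chr16:32735636-32735885 (Muc4, plus), chr16:32797436-32797685 (Muc20, minus), chr16:33793787-33794036 (Muc13, plus, the first of its 2 windows) and chr7:131174152-131174401 (Cdcp3, plus).
Muc1: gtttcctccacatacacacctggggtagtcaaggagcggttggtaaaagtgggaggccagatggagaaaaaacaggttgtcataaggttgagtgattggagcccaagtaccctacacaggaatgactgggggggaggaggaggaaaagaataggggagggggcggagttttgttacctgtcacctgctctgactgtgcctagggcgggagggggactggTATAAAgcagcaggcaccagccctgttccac
Muc4: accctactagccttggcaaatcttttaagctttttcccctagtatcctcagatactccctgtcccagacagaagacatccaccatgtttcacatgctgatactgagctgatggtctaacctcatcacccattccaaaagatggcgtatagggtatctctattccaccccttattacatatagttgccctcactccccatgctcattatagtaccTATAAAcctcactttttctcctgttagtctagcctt
Muc20: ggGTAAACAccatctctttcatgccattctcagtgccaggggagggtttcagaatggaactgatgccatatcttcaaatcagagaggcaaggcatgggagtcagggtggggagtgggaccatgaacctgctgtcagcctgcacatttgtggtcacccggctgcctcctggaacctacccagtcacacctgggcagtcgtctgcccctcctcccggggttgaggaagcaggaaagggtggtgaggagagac
Muc13: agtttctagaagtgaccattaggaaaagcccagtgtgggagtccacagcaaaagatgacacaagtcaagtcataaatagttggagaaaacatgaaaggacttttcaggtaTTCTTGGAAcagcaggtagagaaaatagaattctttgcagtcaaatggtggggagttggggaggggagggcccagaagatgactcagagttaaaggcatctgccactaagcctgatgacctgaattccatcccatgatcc
Cdcp3: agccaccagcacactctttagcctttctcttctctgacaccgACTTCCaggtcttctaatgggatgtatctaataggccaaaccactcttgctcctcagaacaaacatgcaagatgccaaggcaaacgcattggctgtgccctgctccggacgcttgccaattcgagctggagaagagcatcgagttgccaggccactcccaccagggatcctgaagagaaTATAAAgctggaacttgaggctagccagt
Capitals mark a TATA box (TATAAA) in Muc1, Muc4 and Cdcp3, a forkhead core (TGTTTAC, here on the opposite strand as GTAAACA) in Muc20, a STAT site (TTCNNNGAA) in Muc13, and an ETS core (GGAAGT, here on the opposite strand as ACTTCC) near the start of the Cdcp3 window. The matches within a window do not overlap.

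The TATA box letters lay 31 to 26 bases before the start of Muc1, 36 to 31 before that of Muc4 and 29 to 24 before that of Cdcp3, so a match at this place was found on both sides of the expression pattern. The bases after the Muc1 window were not found in a GENCODE transcript of the gene, so its distances hold for the RefSeq start. Over 22271 windows of this length, from 18458 genes and searched on both strands, TATAAA was found at any place in 11.4%. Its share at the distances above was not counted. The forkhead core was found in 2.68% of windows, the STAT letters in 6.62% and the ETS core in 20.5%. An estrogen response element (in 0.0449% of all windows) and a progesterone or glucocorticoid response element (in 0.386%) were not matched in any of the members' windows, which says only that these letters are absent there. The GC content was 54.8% for Muc1, 43.6% for Muc4, 57.2% for Muc20, 44.8% for Muc13 and 51.6% for Cdcp3, against a median of 55.6% over all windows (10th to 90th percentile 40.0% to 71.2%). The Muc16 window, with a GC content of 46.4%, held no motif searched for. As for Muc1, the bases after it were not found in a GENCODE transcript of the gene, so this holds for the RefSeq start.

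Libraries held between 27219103 and 108119756 counts, and between 15239 and 17735 genes were detected in each. Levels are given as CPM (read counts scaled to a fixed library total) after TMM scaling, and 3 counts were worth 0.0286 to 0.107 CPM. On the second principal component, which held 10.1% of the variance against 61.4% for the first, HR- LP replicate 3 stood apart from replicates 1 and 2 (-91.6 against 15.8 and 39.5). The gate gene Cd14 stood at 1114 ± 103 CPM in HR- LP, 324 ± 35.2 in HR+ LP and 24.7 ± 6.04 in ML (SD, n = 3). Pgr, the progesterone receptor gene tied to the reporter, stood at 9.42 ± 5.54, 279 ± 65.8 and 435 ± 144 CPM. Luminal markers, 10 genes led by Krt8, summed to overlapping levels in the 3 populations, at 15612 to 17607, 14340 to 18869 and 14741 to 19191 CPM, while the median of the 10 genes was 606, 1131 and 1333 CPM.

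The 8 genes fell into 2 sets with opposite order across the populations. Muc1, Muc4, Muc15 and Muc20 were highest in HR- LP, lower in HR+ LP and lowest in ML. Muc13, Muc16, Dmbt1 and Cdcp3 were lowest in HR- LP and higher in every library of both other populations. The mean of HR+ LP lay between the others for all 8 genes, but at different places. With HR- LP at 0 and ML at 1 on a log2 scale, it lay at 0.19 to 0.36 for the first set and at 0.91 to 0.98 for the second. For the second set the ranges of HR+ LP and ML overlapped, so these places were not told apart from 1. Over all tested genes, HR+ LP libraries also lay between the others on the first principal component (20.5 to 27.7, against -153 to -133 in HR- LP and 113 to 124 in ML).

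**Figure D1:**
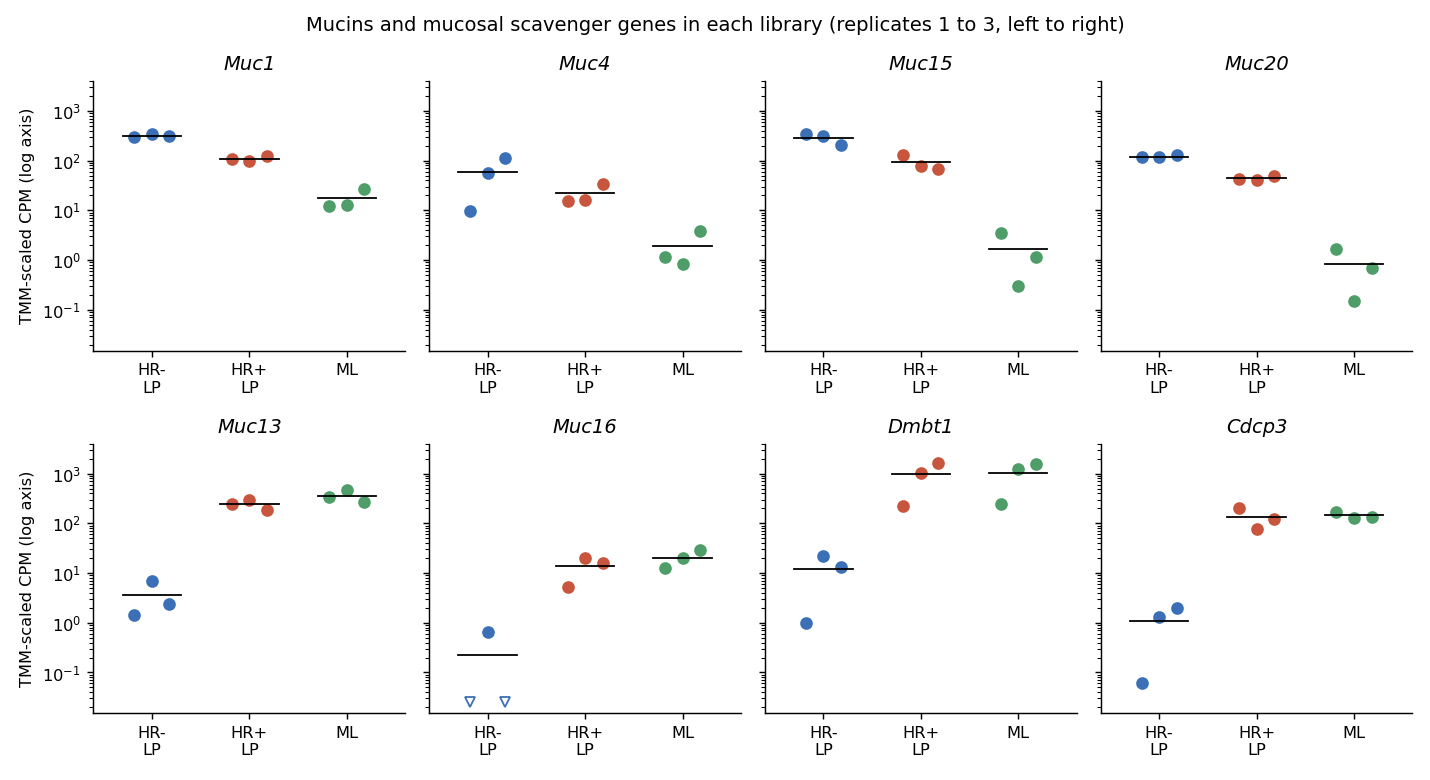
TMM-scaled CPM (log axis) of the 8 genes in each of the 9 libraries, with replicates 1 to 3 from left to right, a line at the mean of each population, and open triangles at the foot for libraries without a count. Muc15 runs from 351 CPM in HR- LP down to 0.298 in ML, whereas Muc13 runs from 1.45 up to 467.

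Calls by edgeR at an adjusted p below 0.05 describe how the choice of these genes sits among all 15910 tested genes, and nothing is read from them for the members. In HR+ LP against HR- LP, 4 members were called higher, where 17.2% of all tested genes were, and 3 lower, where 12.8% were. In ML against HR+ LP, 0 were called higher (0.0943% of all tested genes) and 4 lower (6.7%). In ML against HR- LP, 4 were called higher (23.3%) and 4 lower (21.3%). All 8 genes passed the filter on low counts, Muc16 and Cdcp3 with too few counts in HR- LP to pass there alone. The ranges of the libraries did not overlap for 7 of 8 genes in the first comparison, for the 4 lower genes in the second and for all 8 in the third. The share of all tested genes with ranges apart was not counted, and the members were chosen for differing. Nothing is therefore read from these counts for the members either. The median log2 difference over all tested genes was 0.01, 0.01 and 0.03 in the 3 comparisons.

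Muc1 encodes the epithelial membrane mucin of gland ducts. It lies on chromosome 3 at 89229056 to 89233381 (mm10, gene ID 17829). It stood at 297, 336 and 318 CPM in the HR- LP libraries, 109, 98.7 and 123 in HR+ LP and 12.5, 13.1 and 27.4 in ML. The 3 populations were separated with no overlap, and the level was 2.87-fold lower in HR+ LP than in HR- LP (log2 difference -1.52, SE 0.26). It was a further 6.25-fold lower in ML than in HR+ LP (-2.64, SE 0.27), and 17.9-fold lower in ML than in HR- LP (-4.16, SE 0.29). ML replicate 3 was the high library of that population. Without it the differences were -3.11 from HR+ LP and -4.63 from HR- LP. Of the first set, Muc1 kept the highest level in ML.

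Muc4 encodes a large membrane mucin known to bind the receptor ERBB2. It lies on chromosome 16 at 32735886 to 32782391 (gene ID 140474). Its 3 HR- LP libraries differed widely, at 9.51, 56.6 and 113 CPM, and those of HR+ LP stood at 15.5, 16.1 and 34.4. These ranges overlapped, and the difference of -1.44 had an SE of 0.73. It was -0.59 without HR- LP replicate 3, the library that stood apart on the second component, and -1.94 without replicate 1. In ML the gene stood at 1.17, 0.851 and 3.77 CPM, below every library of the other populations. ML was lower than HR+ LP by 11.3-fold (-3.50, SE 0.82) and than HR- LP by 30.6-fold (-4.93, SE 0.87). Without ML replicate 3 these differences were -4.46 and -5.89, and without HR- LP replicate 3 the latter was -4.09. Replicate 3 was the highest library of Muc4 in all 3 populations.

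Muc15 encodes a smaller membrane mucin. It lies on chromosome 2 at 110721494 to 110739537 (gene ID 269328). It stood at 351, 308 and 211 CPM in HR- LP, 132, 78.0 and 67.1 in HR+ LP and 3.58, 0.298 and 1.15 in ML. No ranges overlapped. The step from HR- LP to HR+ LP was 3.14-fold (-1.65, SE 0.53), and that from HR+ LP to ML was 58.3-fold (-5.87, SE 0.66). Between HR- LP and ML it differed 183-fold (-7.51, SE 0.70), the widest difference of the first set. Without ML replicate 1, the highest library of that population, the differences were -7.01 from HR+ LP and -8.66 from HR- LP. Over all fits with a library left out they ranged from -7.01 to -5.32 and from -8.66 to -6.99.

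Muc20, a membrane mucin known to bind the receptor MET, lies on chromosome 16 at 32777419 to 32797435 (gene ID 224116). Within the CD14+ populations its replicates were the closest of the set, at 116, 116 and 128 CPM in HR- LP and 43.2, 39.9 and 48.7 in HR+ LP. In ML it stood at 1.67, 0.149 and 0.683 CPM, from 50, 7 and 29 counts. It was 2.73-fold lower in HR+ LP than in HR- LP (-1.45, SE 0.39), 56.6-fold lower in ML than in HR+ LP (-5.82, SE 0.51) and 155-fold lower in ML than in HR- LP (-7.27, SE 0.54). Without ML replicate 1, again the highest, the last 2 differences were -6.75 and -8.19. With each library left out in turn they ranged from -6.75 to -5.26 and from -8.19 to -6.73. The 4 genes of the first set thus had differences between the CD14+ populations within -1.65 to -1.44, with the widest SE for Muc4, and differences from HR+ LP to ML that ran from -5.87 to -2.64.

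Muc13 encodes a membrane mucin known from the gut surface. It lies on chromosome 16 at 33794037 to 33819929 (gene ID 17063). It stood at 1.45, 6.99 and 2.36 CPM in HR- LP, 245, 291 and 189 in HR+ LP and 332, 467 and 269.8 in ML. HR- LP was far below both other populations, and these overlapped. HR+ LP was 64.8-fold above HR- LP (6.02, SE 0.54) and ML 95.4-fold (6.58, SE 0.56). Without HR- LP replicate 2, the highest library of that population, the differences were 7.02 and 7.58. ML was above HR+ LP in each same-numbered pair of libraries, by 1.36, 1.6 and 1.43 times, with a fitted difference of 0.56 (SE 0.43).

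Muc16 encodes the mucin that carries the CA125 antigen. It lies on chromosome 9 at 18495445 to 18674821 (gene ID 73732). In HR- LP it had 0, 65 and 0 counts, or 0.665 CPM in replicate 2 and no count in the others. It stood at 5.19, 20.2 and 15.8 CPM in HR+ LP and 12.5, 19.7 and 28.6 in ML, ranges that overlapped. The fitted differences from HR- LP were 5.56 (SE 0.97) for HR+ LP and 6.12 (SE 0.99) for ML, and both rest on the counts of replicate 2 of HR- LP. The counted gene model held 1032 bases, a length of 3.92% of the 26350 exon bases that GENCODE gives this gene. The level is thus read from a small part of it at most.

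Dmbt1 lies on chromosome 7 at 131032057 to 131121628 (gene ID 12945). It stood at 0.989, 22.3 and 13.1 CPM in HR- LP, 223, 1046 and 1642 in HR+ LP and 241, 1241 and 1593 in ML. Every library of the latter populations was above every HR- LP library, with 79.5-fold (6.31, SE 1.17) and 84.0-fold (6.39, SE 1.17) higher levels. Without HR- LP replicate 2 these differences were 7.14 and 7.22, and without HR+ LP replicate 3 the first was 5.70. HR+ LP and ML overlapped across nearly their whole ranges (0.08, SE 0.93), and this difference was -0.39 without HR+ LP replicate 1 or ML replicate 3, -0.08 without ML replicate 2 and 0.69 without HR+ LP replicate 3. Dmbt1 had the widest spread between replicates among the genes of the second set in HR+ LP and ML, where the highest library exceeded the lowest 7.37-fold and 6.61-fold.

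Cdcp3 lies on the same strand 52.8 kb beyond the end of Dmbt1, on chromosome 7 at 131174402 to 131306452 (gene ID 71395). It stood at 0.0605, 1.31 and 1.97 CPM in HR- LP, 207, 77.9 and 120.1 in HR+ LP and 171, 129 and 137 in ML. The lowest of these values came from 3 counts. It was 127-fold higher in HR+ LP (6.99, SE 0.73) and 137-fold higher in ML (7.09, SE 0.73) than in HR- LP. HR+ LP and ML overlapped (0.11, SE 0.54), and the difference was -0.17 without HR+ LP replicate 2 and -0.03 without ML replicate 1.

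**Figure D2:**
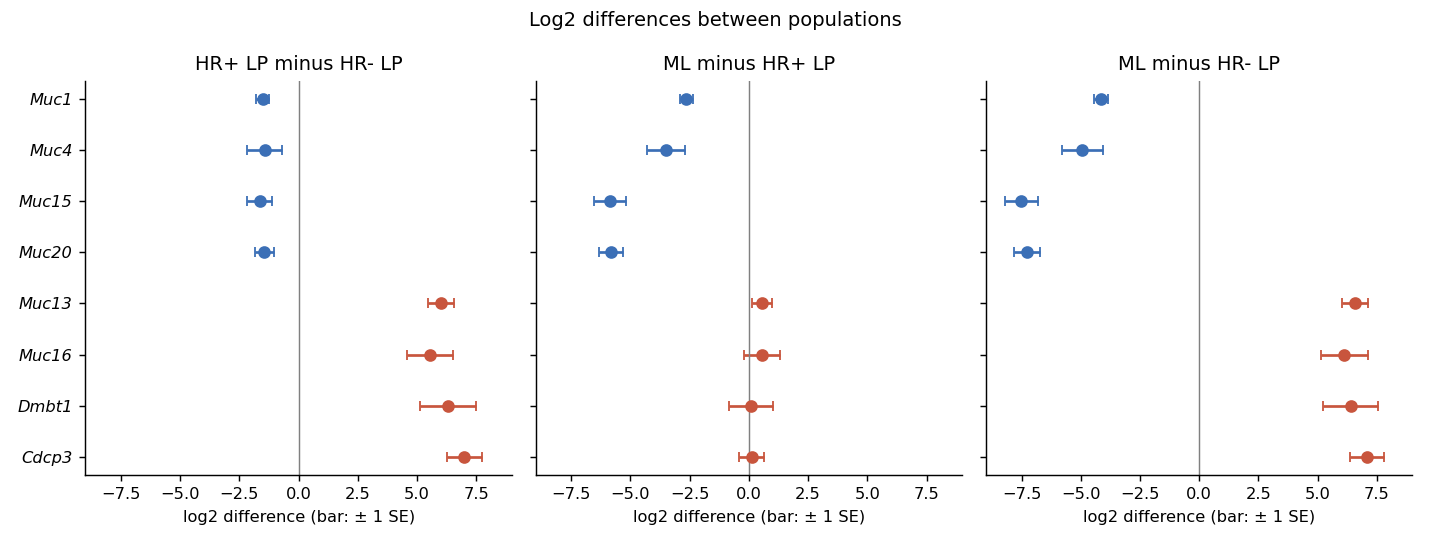
Log2 differences of the 8 genes between populations from the edgeR fit, with bars of 1 SE and one panel per comparison. The first set (blue) lies left of 0 in every panel, and the second (red) lies between 5.56 and 7.09 against HR- LP and between 0.08 and 0.56 in ML against HR+ LP.

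Summed over genes, the first set took 773, 817 and 770 CPM of the HR- LP libraries, 300.1, 233 and 273 of HR+ LP and 19.0, 14.4 and 33.0 of ML. The second set took 2.5, 31.3 and 17.5 CPM, 680.1, 1436 and 1967 CPM, and 756, 1857 and 2029 CPM. The replicates of the first sum were close in HR- LP (787 ± 26.2 CPM, SD, n = 3), although Muc4 and Muc15 ran in opposite order over its libraries. The second sum was dominated by Dmbt1 and carried its spread (1361 ± 647 CPM in HR+ LP). In sorted bulk populations, fewer cells that express a gene and less RNA per cell cannot be told apart, so these levels do not say how the genes are shared among cells.

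Levels of different genes were compared per length, as CPM per kb of the counted gene model. In HR- LP Muc15 (182 ± 45.2) and Muc1 (142 ± 8.77) were highest with overlapping ranges, followed apart by Muc20 (28.0 ± 1.65) and then Muc4 (5.29 ± 4.59). In HR+ LP, Dmbt1 (155 ± 114), Muc13 (81.4 ± 17.2), Muc15 (58.1 ± 21.9), Muc1 (49.4 ± 5.5) and Cdcp3 (46.1 ± 22.5) each overlapped the next in this order. Muc16 (13.3 ± 7.5), Muc20 (10.3 ± 1.04) and Muc4 (1.95 ± 0.954) followed, with Muc16 apart from Cdcp3 and Muc4 apart from Muc20. The HR+ LP libraries thus held genes of both sets at like levels per length. In ML Dmbt1 (164 ± 112) and Muc13 (120.1 ± 33.9) overlapped, and Cdcp3 (49.7 ± 7.6), Muc16 (19.6 ± 7.82), Muc1 (7.9 ± 3.76), Muc15 (1.06 ± 1.07), Muc20 (0.195 ± 0.181) and Muc4 (0.171 ± 0.142) followed. The counted models had a length of 34.2% of the GENCODE exon bases for Cdcp3 and 44.5% for Muc15. For the genes other than these and Muc16 it was 88.5% to 106%. These are ratios of length, and positions were not compared. The per-length levels of Cdcp3, Muc15 and Muc16 therefore depend on which bases were counted.

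Replicates with the same number moved together for some members. Dmbt1 was lowest in replicate 1 of all 3 populations, and its ratio of ML to HR+ LP was 1.08, 1.19 and 0.97 in replicates 1, 2 and 3, against a 7.37-fold range within HR+ LP. Whether equal numbers mark a common mouse or sort is not given in the labels. With the number as a replicate block in the fit, the SE of the Dmbt1 difference between ML and HR+ LP was 0.33 in place of 0.93, around a difference of 0.09. Muc13 had its highest library in replicate 2 of all 3 populations. Cdcp3 did not follow Dmbt1: replicate 1 was its highest library in HR+ LP and ML, where Dmbt1 was at its lowest, and the level of Dmbt1 over that of Cdcp3 in HR+ LP was 1.07, 13.4 and 13.7 in the 3 replicates. Muc15 ran with replicate 1 highest in all 3 populations.

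**Figure D3:**
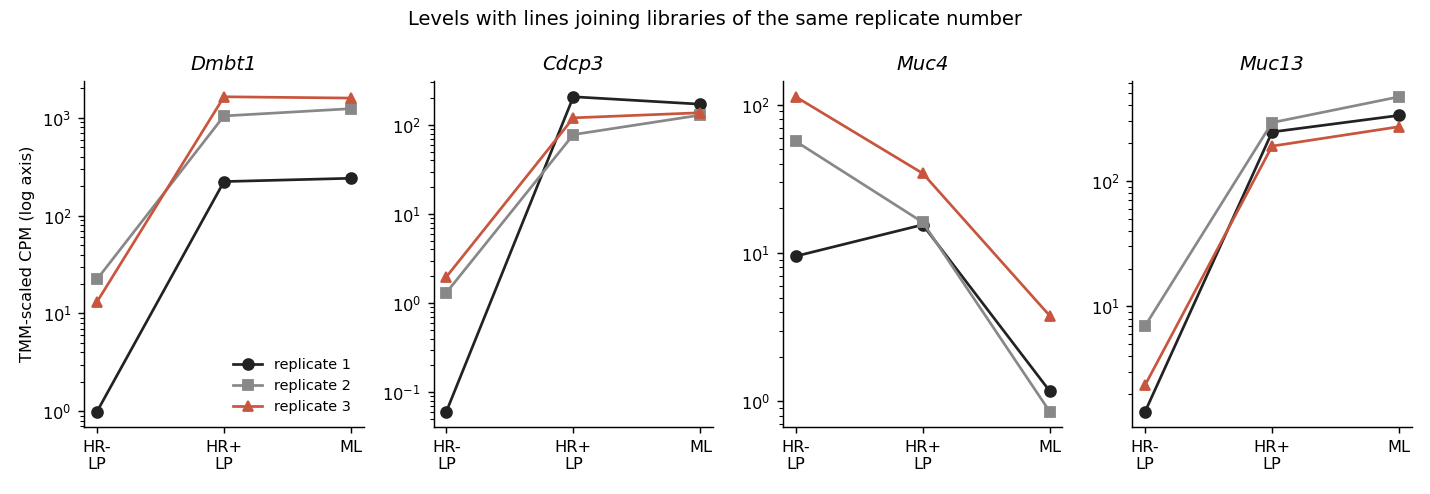
TMM-scaled CPM (log axis) of Dmbt1, Cdcp3, Muc4 and Muc13, with lines joining libraries of the same replicate number across the 3 populations. Replicate 1 of Dmbt1 lies below the others throughout, at 0.989, 223 and 241 CPM, whereas replicate 1 of Cdcp3 is the highest library in HR+ LP (207 CPM) and ML (171 CPM).

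The coding sequences show how the members differ as proteins, independently of the levels that chose them. Serine, threonine and proline codons made up 44.1% of the codons of Muc1, 44.8% of Muc4, 34.1% of Muc15, 43.5% of Muc20, 38.0% of Muc13 and 38.8% of Muc16. The median over 20956 mouse genes was 18.7%, and 8 to 173 genes had a higher share than these mucins. Dmbt1 (23.6%) and Cdcp3 (24.2%) were nearer the median, with 3151 and 2676 genes above them. They were instead rich in cysteine codons, at 4.45% and 4.42% against a median of 2.12%, whereas Muc1, Muc15, Muc16 and Muc20 held 0.302% to 0.581% and Muc4 1.38%. Muc13, with 3.49%, was the mucin with the highest cysteine share. Mucins with high serine, threonine and proline shares occurred in both expression sets, and both scavenger genes were in the second.

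The genome holds 2 neighbouring pairs of members. Muc4 and Muc20 overlap by 4973 bases of gene body on opposite strands of chromosome 16, with 627 bases of shared exon, and Muc13 lies 996.6 kb beyond Muc20 with the opposite expression pattern. Dmbt1 and Cdcp3 are neighbours on chromosome 7, and the 2 annotated genes between them, 4933402N03Rik and 1700029B22Rik, had no count in any library. The library kit does not mark strand, so reads from the bases shared by Muc4 and Muc20, by Muc15 and Ano3 (61 bases) and by Muc13 and Gm15657 (184 bases) cannot be told apart. Of 50-base stretches, 4.31% in Muc4 and 12.1% in Muc20 were shared with the other, 5.2% in Muc13 with Gm15657, 0.416% in Muc15 with Ano3, and 0 in Muc1, Muc16, Dmbt1 and Cdcp3.

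Genes within 500 kb of a member were tested, since position was not used to choose the members. Of 112 such genes 79 were tested. By edgeR 15 were higher, 10 lower and 54 not called in HR+ LP against HR- LP, with a median log2 difference of 0.13, beside 17.2% higher and 12.8% lower over all tested genes. In ML against HR- LP the counts were 20, 11 and 48 (median 0.15). In ML against HR+ LP they were 0, 5 and 74 (median 0.01), with 7 at an unadjusted p below 0.05, and 0 were higher by DESeq2 or limma voom either. The number lower in ML than in HR+ LP was 3 without HR+ LP replicate 2 or 3 or without ML replicate 2, and the number lower in HR+ LP than in HR- LP was 6 without HR+ LP replicate 1.

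Around Dmbt1 and Cdcp3 the 11 tested neighbours had log2 differences of -0.79 to 0.52 in HR+ LP against HR- LP, far within the 6.31 and 6.99 of the members. Htra1, a serine protease gene 46.4 kb from Dmbt1, stood at 1.99 ± 0.913, 1.16 ± 0.617 and 1.59 ± 0.39 CPM in HR- LP, HR+ LP and ML and was not called. Cuzd1, 2.1 kb from Cdcp3 and itself a gene with CUB domains, had too few counts to be tested. Around Muc13 the nearest genes Heg1 (22.5 kb) and Itgb5 (9.7 kb) were not called, with differences of -0.42 (SE 0.36) and 0.22 (SE 0.18). Slc12a8, named after its values were seen, was the called gene of that locus in this comparison. It had no count in HR- LP and 1.37 ± 0.597 CPM in HR+ LP (edgeR adjusted p = 0.000388). The nearest genes of Muc16, Mbd3l1 and Olfr24, had no count. Of 3 genes tested near Muc16, 1 was called higher in HR+ LP than in HR- LP, Naalad2, named after its values were seen. It stood near the floor, at 0.0119 ± 0.0207, 0.34 ± 0.254 and 0.274 ± 0.173 CPM in HR- LP, HR+ LP and ML (edgeR adjusted p = 0.037).

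Both tested genes near Muc15, and some of those near Muc1 and near Muc4 and Muc20, ran in the same order as the members. Both tested neighbours of Muc15 were lower in every comparison. Ano3, a scramblase family gene that overlaps Muc15, stood at 38.5 ± 17.5, 9.95 ± 4.17 and 0.19 ± 0.329 CPM (edgeR, ML against HR+ LP -6.01, SE 0.90, adjusted p = 0.00112). Reads from the 61 exon bases that Ano3 shares with Muc15 cannot be told apart, and their part in its level was not tested. Bbox1, an enzyme gene of carnitine synthesis on the other side of Muc15 and named after its values were seen, stood at 37.5 ± 6.53, 11.6 ± 1.9 and 0.604 ± 0.273 CPM (-4.25, SE 0.31, adjusted p = 5.25e-06). Trim46, which encodes a tripartite motif protein and lies 0.8 kb from Muc1, stood at 75.2 ± 16.9, 29.9 ± 6.38 and 6.97 ± 2.23 CPM and was lower in each comparison (-1.33, -2.11 and -3.44, edgeR adjusted p = 0.00241, 0.000257 and 2.17e-06). Trim46 was 1 of 4 genes lower in HR+ LP than in HR- LP among 38 tested around Muc1, where 10 were higher. Efna1, another of these 4 and named after its values were seen, was also lower in each comparison (-0.98, -0.75 and -1.73). Over all tested genes 12.8% were lower and 17.2% higher. Near Muc4 and Muc20, 3 of 18 tested genes were lower in HR+ LP than in HR- LP and 1 was higher. Among the lower, named after their values were seen, were Tnk2 (-0.78, SE 0.15) and the transferrin receptor gene Tfrc (-1.19, SE 0.16). Tfrc was also lower in ML than in HR+ LP (-0.67, SE 0.16, edgeR adjusted p = 0.024), whereas Tnk2 was not called (-0.50, SE 0.15). In ML against HR- LP the differences were -1.86 for Tfrc and -1.28 for Tnk2, the 2 genes called lower there, beside 4 higher. Of the nearest genes of Muc4 and Muc20, Tnk2os stood at 0.757 to 2.36 CPM in HR- LP and was not called, and Smbd1 had too few counts to be tested.

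**Figure D4:**
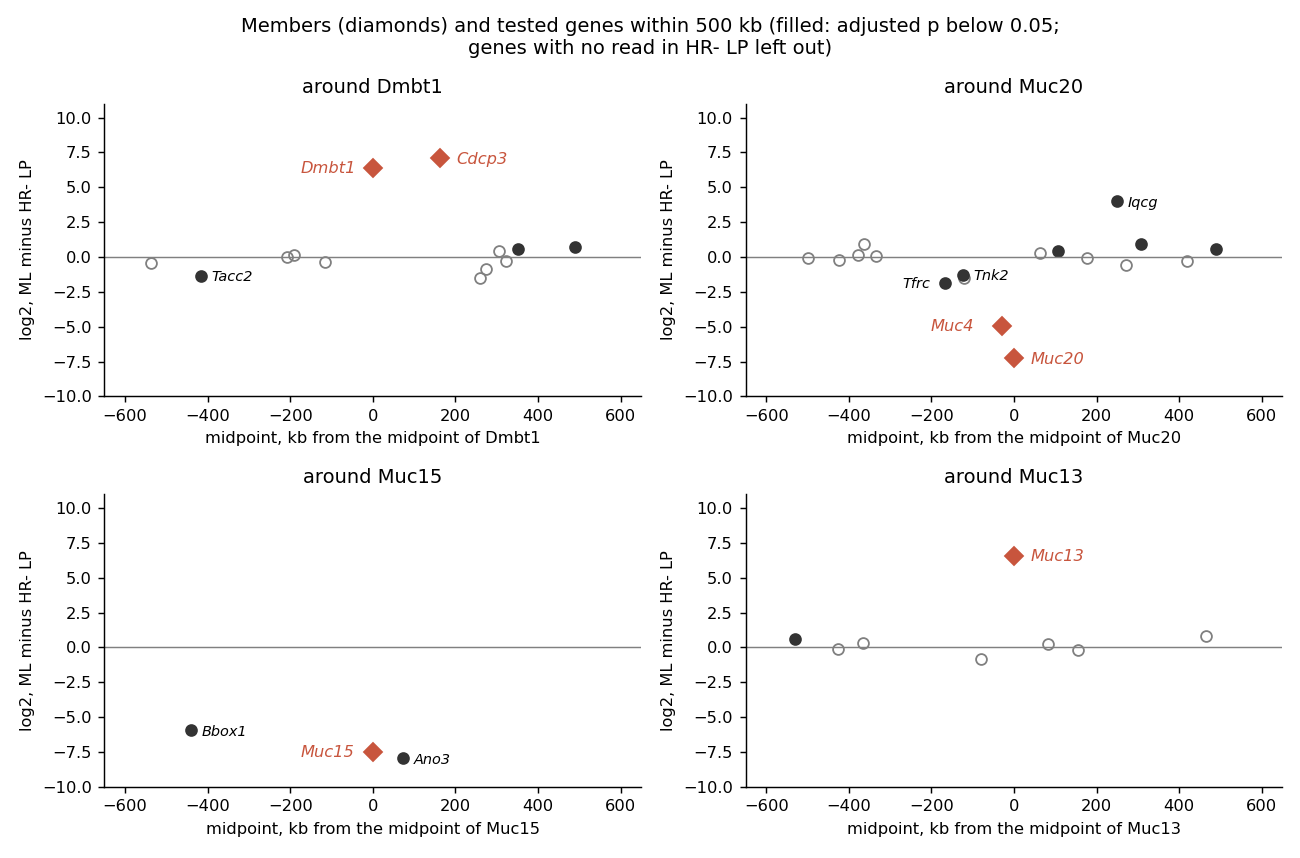
Log2 difference of ML minus HR- LP for members (diamonds) and tested genes within 500 kb (circles, filled where the edgeR adjusted p is below 0.05), against the distance between gene midpoints in kb. Genes without a count in HR- LP are not drawn. The neighbours of Dmbt1 lie between -1.53 and 0.75, whereas Ano3 and Bbox1 lie at -7.96 and -5.94 in the panel of Muc15.

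Likeness of profile was measured as the root mean square difference of log2 CPM over the 9 libraries, after each gene was centred on its own mean, among 9203 genes of sufficient level. Muc15 and Muc20 were the closest pair of members, at 0.39. The next were Muc1 and Muc4 (0.99), Muc13 and Muc16 (1.02) and Muc13 and Cdcp3 (1.14), while Dmbt1 and Cdcp3 were 1.38 apart. Members of different sets were 4.73 to 6.66 apart. Nearest to Muc1 were Plb1 (0.23), Dlc1 (0.23) and Cebpb (0.25), the last of which encodes the transcription factor C/EBP beta. Nearest to Muc15 were Wnt5b (0.3), Cck (0.33) and Btn1a1 (0.35), the gene of the milk fat globule protein butyrophilin, and to Muc20 Rasgef1c (0.29), Enpp3 (0.3) and Wnt5b (0.34). Muc4 had no near match, with Creb5 at 0.5 and the immediate early genes Fosl1 and Nr4a3 at 0.7.

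In the second set, Muc13 was nearest to Agtr1a (0.27), an angiotensin receptor gene, Slc7a2 (0.29), a cationic amino acid transporter gene, and Abcc8 (0.33). Agtr1a stood at 3.26 ± 3.46, 202 ± 75.5 and 292 ± 130 CPM in HR- LP, HR+ LP and ML. The other genes of the set had more distant nearest profiles: Dpep2 (0.6), Capn8 (0.78) and Kif5c (0.8) for Muc16, Nrxn3 (0.7), Rasgrf1 (0.72) and Cyp3a57 (0.83) for Dmbt1, and Rasgrf1 (0.93), Egflam (0.96) and Piezo2 (0.98) for Cdcp3. Only genes with a mean log2 CPM over 3 were searched, and Muc16 itself lay below that (-3.47, 3.57 and 4.26 in HR- LP, HR+ LP and ML). Nearer profiles among genes of its own level were therefore not looked for.

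Genes related to the members by kind were tested in 4 lists, and 57 of 88 found genes had enough counts. Of the 31 others, 15 had no count in any library and none had more than 32 counts in a library; these include the trefoil factor genes Tff1, Tff2 and Tff3 and the gel-forming mucin gene Muc5ac. By edgeR 19 of the 57 were higher, 7 lower and 31 not called in HR+ LP against HR- LP (median log2 difference 0.14). In ML against HR+ LP 0 were higher, 9 lower and 48 not called (median 0.20, 13 at an unadjusted p below 0.05). In ML against HR- LP 23 were higher, 12 lower and 22 not called (median 0.42). The shares over all tested genes stand above. DESeq2 called 1 gene higher in ML than in HR+ LP, Cd164, and so did edgeR with the replicate number as a replicate block (1 gene, log2 difference 0.58). The count lower in HR+ LP than in HR- LP was 4 without HR+ LP replicate 2, and the count lower in ML than in HR+ LP was 5 without ML replicate 2.

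Among other mucins and sialomucins, 13 were tested, of which 4 were higher and 1 lower in HR+ LP than in HR- LP (median -0.42). Cd164, which encodes a small sialomucin of the cell surface and lysosome, rose most clearly, from 589.7 ± 88.7 CPM to 4318 ± 446, with 6504 ± 1069 in ML (2.87, SE 0.18, edgeR adjusted p = 2.84e-06 between the CD14+ populations). Podxl, which encodes the sialomucin podocalyxin, rose from 94.5 ± 9.29 to 340.5 ± 35.0 CPM and stood at 438 ± 69.6 in ML (1.85, SE 0.16, adjusted p = 1.62e-05). Cd164l2 rose from 8.68 ± 1.67 to 36.1 ± 6.19 CPM. Muc3, a gut membrane mucin gene, had no count in HR- LP and 0.225 ± 0.16 CPM in HR+ LP (edgeR adjusted p = 0.0162). Mcam, an endothelial and smooth muscle adhesion molecule, was lower throughout, at 43.6 ± 17.2, 18.3 ± 7.42 and 5.72 ± 2.79 CPM, with a difference of -1.25 between the CD14+ populations (adjusted p = 0.0376). That call was lost when any of 5 of the 9 libraries was left out, among them HR- LP replicates 2 and 3. In ML against HR- LP 4 genes of the list were higher and 2 lower. The gel-forming mucin genes Muc2, Muc5b and Muc6 were tested and not called in any comparison.

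Of 11 tested SRCR and CUB genes, 1 was higher and 2 were lower in HR+ LP than in HR- LP (median -0.76), and 0 were higher and 3 lower in ML than in HR+ LP. The scavenger receptor gene Scara5, known for ferritin uptake, fell from 164 ± 17.9 CPM to 53.2 ± 1.92 and to 2.73 ± 1.17 in ML (-1.62, SE 0.24, edgeR adjusted p = 0.000573, and -4.29, SE 0.28, adjusted p = 2.38e-06). Cd163, the haemoglobin scavenger receptor gene of macrophages, fell from 21.5 ± 9.0 to 7.67 ± 1.11 and 1.08 ± 0.664 CPM. Its first step (-1.49, adjusted p = 0.0156) was no longer called without HR- LP replicate 2 or HR+ LP replicate 2 or 3. Immune markers summed over 14 genes ran in the same order at low levels, 11.1 to 14.8, 5.79 to 8.47 and 4.19 to 5.23 CPM, mostly from Cd68, with Cd3g at 0 throughout, and their part in the Cd163 result was not tested. Prss12 was lower in ML than in HR+ LP, at 0.0755 ± 0.0711 against 1.21 ± 0.0159 CPM (adjusted p = 0.0102). Lgals3bp, the galectin-3 binding protein gene, rose from 15.7 ± 5.46 to 26.3 ± 5.15 CPM (0.74, SE 0.25, adjusted p = 0.044), a call that was lost in 8 of 9 fits with a library left out. The other 8 tested genes of the list were not called between the CD14+ populations.

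Genes of the mucus layer and of mucosal secretion were called in both directions. Of 12 tested, 5 were higher and 3 lower in HR+ LP than in HR- LP (median 0.96), 0 and 3 in ML against HR+ LP, and 6 and 4 in ML against HR- LP. Clca1, which encodes a secreted goblet cell protein, stood at 0.0849 ± 0.0563, 26.0 ± 12.8 and 35.2 ± 16.6 CPM (8.58, SE 0.63, edgeR adjusted p = 7.07e-06). Spdef, which encodes an ETS factor of goblet cells, rose from 3.83 ± 0.583 to 19.9 ± 3.65 CPM (2.38, SE 0.24, adjusted p = 3.85e-05). The galectin-3 gene Lgals3 rose from 323 ± 87.8 to 1006 ± 153 CPM, and Reg3g, which encodes an antibacterial lectin, from 0.371 ± 0.477 to 14.0 ± 2.03 CPM.

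Opposite to these, Fcgbp, the gene of a mucus protein that binds IgG Fc, fell from 3298 ± 92.5 to 1152 ± 252 and 18.5 ± 9.66 CPM (-1.52, SE 0.36, edgeR adjusted p = 0.00887, and -5.97, SE 0.44, adjusted p = 5.42e-06). The lactoferrin gene Ltf, which encodes the iron-binding protein of milk, fell from 4182 ± 427 to 1459 ± 189.8 and 21.8 ± 13.0 CPM. Pigr, which encodes the receptor that carries IgA across epithelia, fell from 50.5 ± 13.1 to 16.5 ± 3.91 and 1.17 ± 0.653 CPM. These 3 genes were lower in each comparison.

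The enzymes that start mucin-type O-glycans and build their cores were the longest list tested. Of 21 genes, 9 were higher and 1 lower in HR+ LP than in HR- LP (median 0.22), 0 and 2 in ML against HR+ LP, and 10 and 2 in ML against HR- LP. C1galt1, which encodes the core 1 synthase, rose from 36.8 ± 10.4 to 93.1 ± 5.13 CPM and stood at 121 ± 10.1 in ML (1.34, SE 0.19, edgeR adjusted p = 0.000427). The branching enzyme genes Gcnt1 and Gcnt4 rose from 0.876 ± 0.395 to 15.5 ± 2.55 CPM (4.13, SE 0.33, adjusted p = 1.07e-05) and from 0.299 ± 0.314 to 40.7 ± 9.0 CPM (7.56, SE 0.63, adjusted p = 1.37e-05). Of the GalNAc transferases that add the first sugar, Galnt9 was higher at 2.97 ± 1.58 CPM against 0.0202 ± 0.035 (adjusted p = 0.0005), whereas Galnt2 fell from 106 ± 37.3 to 52.1 ± 9.92 and 26.3 ± 3.26 CPM (-1.02, SE 0.24, adjusted p = 0.0081, and -0.99, SE 0.24, adjusted p = 0.0285). Galnt15 was lower in ML than in HR+ LP (-1.86, SE 0.41, adjusted p = 0.0168). That call was lost without HR+ LP replicate 2 or 3 or without ML replicate 2.

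**Figure D5:**
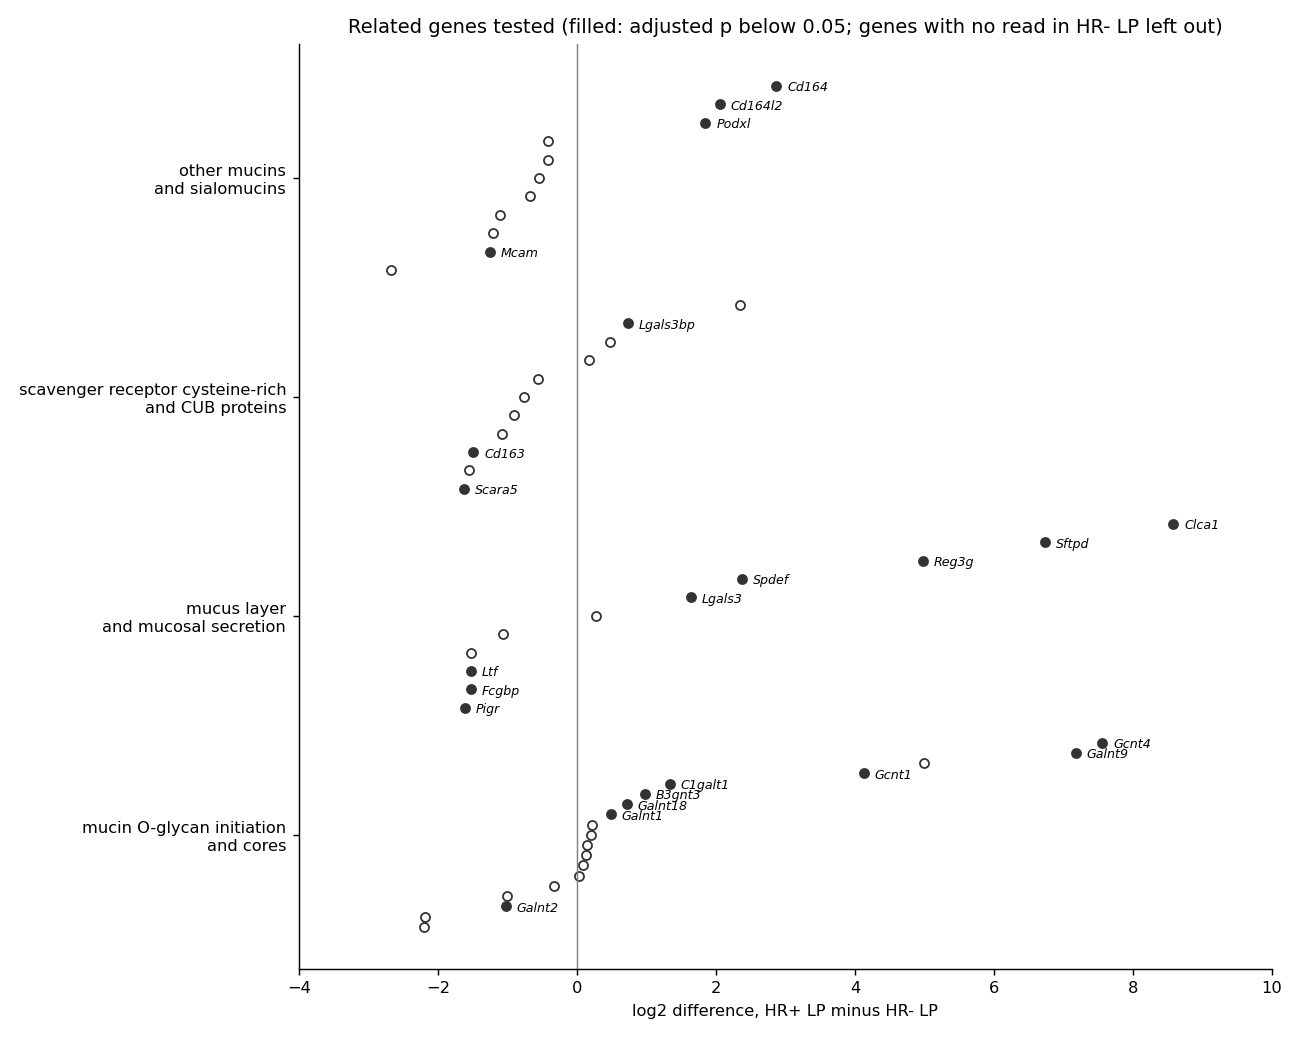
Log2 difference of HR+ LP minus HR- LP for the tested related genes with a count in HR- LP, in their 4 lists, filled where the edgeR adjusted p is below 0.05. Clca1 lies farthest right at 8.58, and the called genes on the left, such as Scara5, Pigr and Fcgbp, lie between -1.62 and -1.02.

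Markers of other cell types moved with the members in part. Basal markers, 14 genes, summed to 8759 to 14867 CPM in HR- LP, 4693 to 5136 in HR+ LP and 1527 to 1853 in ML, in the order of the first set, and most of this came from Igfbp5 in the CD14+ populations, while the median of the 14 genes was 7.74, 4.37 and 4.21 CPM. Endothelial markers, 10 genes, summed to 9.81 to 18.4, 48.5 to 68.6 and 67.4 to 88.4 CPM, in the order of the second set, mostly from Vwf (46.4 CPM in HR+ LP). The median of these 10 genes was not in that order, at 0.842, 0.611 and 0.811 CPM. Fibroblast markers, 10 genes, had overlapping sums in the populations, at 84.2 to 135, 63.4 to 269.5 and 111 to 321 CPM. Their highest gene was Col3a1 in HR- LP (38.7 CPM) and Dcn in HR+ LP and ML (129 and 153 CPM). The median of these 10 genes was 8.49, 2.39 and 1.98 CPM, in the order of the first set. Adipocyte markers did not exceed 5.22 CPM in sum in any library, with Adipoq at 0 in both CD14+ populations, and erythrocyte markers did not exceed 12.4 CPM. No basal, endothelial or fibroblast marker was at 0 in all libraries of a population. The part of these cells in the members' levels was not tested.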

How the data were processed

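RNA-seq read counts of 9 libraries were used, 3 for each of 3 sorted populations. The authors deposited unnormalized read counts for each gene with its length, made with featureCounts on mm10, per the submitters' processing notes. The aligner, the annotation and the handling of multiply mapped reads are not given in the sources used here. Per the labels' protocols, libraries were made with the TruSeq v2 kit, which does not mark strand. Of 27179 genes, 25275 (93.0%) were matched to a symbol in RefSeq of the same build. Related genes were matched by symbol or synonym, with 1 of 90 (Muc17) not found and Muc21 matched to Gm9573, and Cdcp3 is 5430419D17Rik in GENCODE.

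Counts were filtered with filterByExpr by group (15910 genes left), TMM-scaled and tested with edgeR's quasi-likelihood F test on all 9 libraries without covariates, with Benjamini-Hochberg adjustment over all tested genes and a threshold of 0.05. Levels are TMM-scaled CPM with the SD over 3 libraries. The procedure was tested on simulated data. Software was edgeR 4.0.16, DESeq2 1.42.0 and limma 3.58.1 in R 4.3.3, with matplotlib 3.10.9 in Python 3.11.15. Precision was set by the spread between libraries for genes above a few CPM. Alternatives were RLE size factors, DESeq2, limma voom, other filters, fits of only the groups compared, a replicate block, each library left out, and, chosen after seeing the data, library totals alone.

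The members and lists were chosen with earlier results of these data known, so members have no p-value. Named were the members, up to 4 genes per related list and comparison with the smallest p among those called, the nearest annotated gene on each side of a member, the 3 nearest profiles among genes with a mean log2 CPM over 3, and Cd14 and Pgr. Other genes are said to be named after their values were seen. Likeness used a prior count of 2.

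The labels number libraries 1 to 3 in each population. Deviations from the group means correlated across genes at 0.183, 0.121 and 0.189 between same-numbered HR+ LP and ML libraries. Between those of different number the highest value was -0.0503. For HR+ LP and HR- LP the same-numbered values were 0.133, 0.0389 and 0.147, against at most 0.0192 for different numbers. For ML and HR- LP they were 0.0526, 0.0254 and 0.0849, against at most 0.0183. Deviations from a mean of 3 libraries cancel, so higher values for equal numbers lower those for different numbers by construction. The contrast between them is therefore not independent evidence. From the data alone the numbers may pair libraries, most clearly HR+ LP with ML, and the main fit did not use them.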

Additional observations from a re-analysis of the deposited data

How the results depend on the processing

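Of 408 values of the members under alternatives, 400 moved by less than the SD between replicates and 8 by more. Of the differences larger than that SD, 0 changed sign. Those of Dmbt1 and Cdcp3 in ML minus HR+ LP, which were smaller, changed sign within -0.39 to 0.69 and -0.17 to 0.55 with a library left out. Values with a library left out ranged from -3.11 to -2.45 for Muc1 in ML minus HR+ LP and from -4.63 to -3.97 in ML minus HR- LP, from -4.46 to -3.02 for Muc4 in ML minus HR+ LP, and for Muc13 from 5.63 to 7.02 in HR+ LP and from 6.18 to 7.58 in ML, both minus HR- LP. The Muc16 differences from HR- LP ranged from 4.99 to 12.62 for HR+ LP and from 5.56 to 13.18 for ML. Their upper ends leave HR- LP without a count and are no measure of size. Limma voom gave 7.17 and 8.02 for Muc16 and 7.70 and 7.90 for Cdcp3 in HR+ LP and ML minus HR- LP, -0.83 for Muc4 in HR+ LP minus HR- LP, and in ML minus HR+ LP and minus HR- LP -6.55 and -8.23 for Muc15 and -6.43 and -7.88 for Muc20.

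Related genes higher in ML than in HR+ LP numbered 0, and 1 by DESeq2, 2 with only these groups fitted, 1 with the replicate block, 1 with library totals alone and 0 to 1 with a library left out. With a library left out, related genes lower numbered 4 to 8 in HR+ LP against HR- LP and 5 to 9 in ML against HR+ LP, and neighbouring genes lower 6 to 10 and 3 to 7. With the replicate block, 20 related genes were higher and 10 lower in HR+ LP than in HR- LP, in place of 19 and 7. Galnt15 was among those gained. Over all genes, those higher in ML than in HR+ LP numbered 15, and 88 by DESeq2, 50 by limma voom, 216 with only these groups, 71 with the block, 30 with library totals alone and 4 to 63 with a library left out. Those lower in HR+ LP than in HR- LP numbered 2033, and 1211 to 2290 with a library left out. Library totals alone shifted the median log2 difference by 0.11, 0.05 and 0.16 in the 3 comparisons and those of the members by 0.04 to 0.19. They gave 3182 genes higher and 1535 lower in HR+ LP than in HR- LP in place of 2731 and 2033, and 4463 and 2801 in ML against HR- LP in place of 3700 and 3389. Causes were not tested. Muc16 in HR- LP and Muc15 and Muc20 in ML stood on few counts, which limits the size of their differences.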
